A study of Mus musculus with 6 samples.

Results

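Succinate dehydrogenase, complex II of the respiratory chain, was followed in C2C12 muscle cells through the 8 genes that encode its subunits (Sdha, Sdhb, Sdhc and Sdhd) and its dedicated assembly factors (Sdhaf1, Sdhaf2, Sdhaf3 and Sdhaf4). The genes were taken by symbol from the platform annotation, on probe sets that name 1 gene, with the brightest probe set over the 6 arrays kept for each gene. All 8 were found, among 18820 genes with such a probe set, and all 8 lay above the filter on low values (a mean log2 level of 3.87), which 11292 genes passed. C2C12 cells are mouse myoblasts of an immortalized line that fuse into myotubes in low serum. In both groups they differentiated in medium with 2% horse serum, were given locked nucleic acid oligonucleotides (50 nM) by lipofection on day 6, and were collected 24 h later, on day 7. The 3 silenced samples received a silencer of miR-382-5p and the 3 control samples a negative control. By its title, the study asked about an imbalance of mitochondrial and nuclear proteins. Whether the replicates were separate cultures is not stated in the labels, so the p-values refer to the spread among these arrays, which could be technical.

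Complex II is the one enzyme that belongs to both the tricarboxylic acid (TCA) cycle and the respiratory chain. It oxidizes succinate to fumarate and passes the electrons through a flavin and iron-sulfur clusters to ubiquinone in the inner mitochondrial membrane. Unlike the other respiratory complexes that carry mtDNA-encoded subunits, it is built from nuclear genes alone, and it is abundant in muscle. The microRNA that was silenced is shown here because its seed, in capitals (bases 2 to 8), is the stretch by which a microRNA recognizes its targets.
mmu-miR-382-5p: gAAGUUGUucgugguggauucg
This mature sequence is from RefSeq (GRCm38.p6, chr12:109733781-109733802, plus strand). Target sites in the transcripts of the 8 genes were not analysed here.

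The values are log2 expression levels as deposited, and a difference of 1 on this scale would be a doubling. The arrays were alike in overall level, with medians between 4.21 and 4.27 and pairwise correlations between 0.985 and 0.995 over the tested genes. The label of myotubes was checked on 9 markers, among them Myog, Myh3, Acta1 and Ckm, and all 9 lay above the filter, at mean levels between 9.22 and 12.25. All 8 markers of undifferentiated or cycling myoblasts with a probe set also lay above it, at 4.86 to 10.02, with 3 higher and 5 lower means in silenced arrays. Of these, Pax7, a marker of undifferentiated muscle cells, read 5.72 ± 0.13 in control and 5.93 ± 0.03 in silenced arrays (SD, n = 3), without overlap. Named after their values were seen, Id3 differed by -0.25, without overlap, and Myf5 by -0.21, with overlap. Without overlap were thus 1 higher and 1 lower of the 8, against 6.94% and 4.87% of tested genes. Lower in all 3 same-numbered pairs were 3 (Id3, Myf5 and Top2a), against 15.8% of tested genes, and higher in all 3 was 1 (Pax7), against 19.7%. Of 6 fibroblast markers 5 lay above the filter, up to 11.41 (Col3a1), with 2 higher and 3 lower means. The lowest difference was that of Lum (-0.60), at 4.53 ± 0.76 in control and 3.92 ± 0.45 in silenced arrays (SD, n = 3), with overlap. The other tested fibroblast markers differed by -0.090 (Dcn) to 0.090 (Col1a1). Lower in all 3 same-numbered pairs were 2 of the 5 (Lum and Dcn), against 15.8% of tested genes. All 4 adipocyte markers with a probe set lay below the filter, as did 3 of 4 osteoblast markers. The summed log2 level of the 9 myotube markers was 98.1 to 98.9 in control and 99.0 to 100.8 in silenced arrays. These sums did not overlap, but the nearest arrays lay close (98.95 and 99.04). Of the 9, 8 had a higher mean in silenced arrays and 1 (Myog) a lower one. Without overlap were 4 (Myh3, Myh1, Des and Mymk), all higher, against 6.94% of tested genes. For undifferentiated and cycling myoblast markers the sums overlapped, at 60.9 to 62.7 in control and 59.6 to 62.9 in silenced arrays, as they did for fibroblast markers, at 45.4 to 48.3 and 45.2 to 47.6. The part of these shifts in the results on complex II was not tested, and fewer cells of a type and less RNA per cell cannot be told apart in such bulk samples.

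Among the 8 genes, the assembly factor Sdhaf4 had a 1.40-fold lower mean in silenced than in control arrays on its brighter probe set. It was the one member whose groups did not overlap, 1 of 8 against 11.8% of tested genes in either direction. A dimmer probe set of Sdhaf4 differed by 0.028, with overlap. The means of the 4 subunits differed by at most 1.13-fold, with 3 lower and 1 higher in silenced arrays. No member passed limma's threshold over all tested genes (0 of 8 at an adjusted p under 0.05, against a background of 0% of 11292 genes). At an unadjusted p under 0.05 by limma, 1 of 8 members was lower and 0 were higher, where 1.97% of tested genes were lower and 2.83% higher. In a fit blocked on replicate number the count was also 1 of 8 (Sdhaf4), against 10.3% of tested genes. The plot of levels by array shows how far the single arrays of each gene lay from each other.

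**Figure D1:**
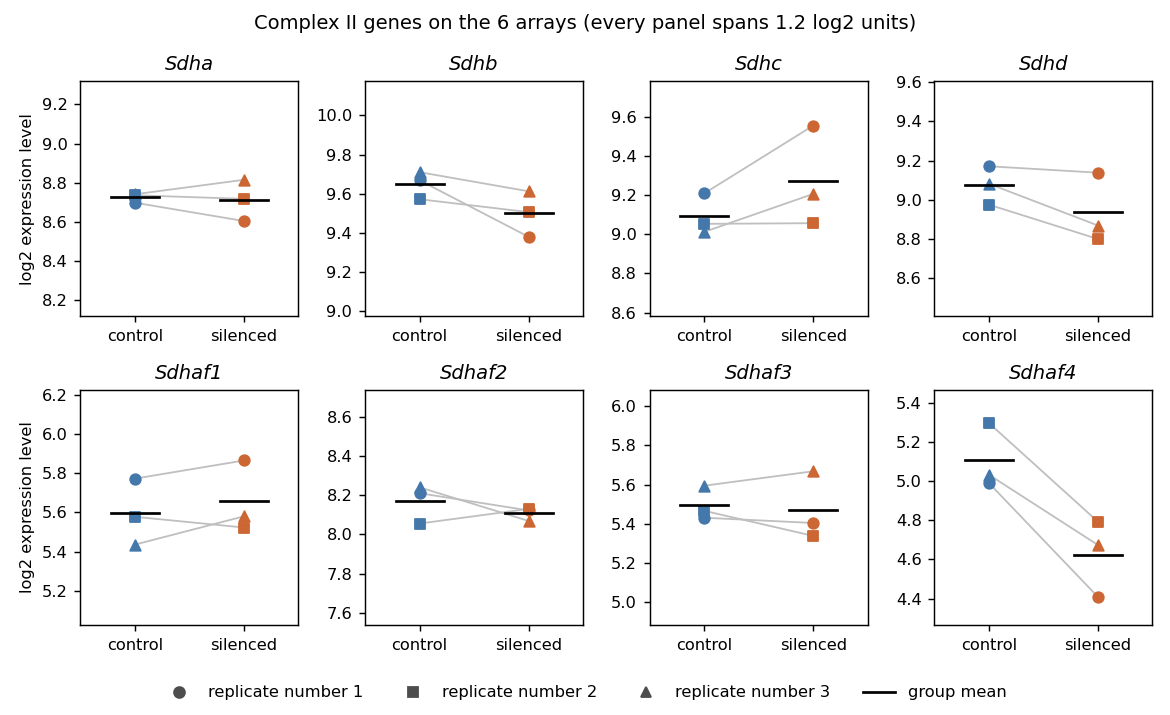
Log2 expression level (y axis, with the same span in every panel) of the 8 complex II genes in control and silenced arrays; symbols mark the replicate numbers, grey lines join arrays of the same number and black bars are means of 3 arrays. Sdhaf4 is the one gene whose 3 silenced values (4.41 to 4.79) all lie below its 3 control values (4.99 to 5.30).

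Sdha encodes the flavoprotein subunit, which binds succinate and carries a covalently attached FAD. It read 8.70, 8.74 and 8.74 in control replicates 1, 2 and 3 and 8.61, 8.72 and 8.82 in silenced replicates 1, 2 and 3. The control arrays lay close together, with silenced replicate 2 among them, silenced replicate 1 below and silenced replicate 3 above. The difference was -0.013 ± 0.084 log2 (limma's moderated SE; 95% confidence interval -0.21 to 0.18; adjusted p = 0.985), and it was 0.041 without silenced replicate 1.

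Sdhb encodes the iron-sulfur subunit, which passes electrons from the flavin towards ubiquinone. Its level was 9.67, 9.57 and 9.71 in the control and 9.38, 9.51 and 9.61 in the silenced arrays. The silenced array of each replicate number read lower than its control, by 0.29, 0.066 and 0.098, but silenced replicate 3 lay above control replicate 2, so the groups overlapped. The interval of the difference reached from -0.36 to 0.063, with limma's adjusted p = 0.871. Leaving out single arrays moved the difference between -0.21 and -0.091, the latter without silenced replicate 1.

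Sdhc and Sdhd encode the membrane anchors, which hold the catalytic subunits at the inner membrane. The anchors take part in the ubiquinone site and have a heme between them. Sdhc read 9.21, 9.05 and 9.01 in the control and 9.55, 9.06 and 9.21 in the silenced arrays. Silenced replicate 1 stood highest, and the pair of replicate number 2 differed by only 0.0034. The interval for Sdhc was -0.14 to 0.50 (limma, adjusted p = 0.876), and the difference of 0.18 dropped to 0.040 when silenced replicate 1 was left out and came to 0.29 when silenced replicate 2 was. Sdhd, by contrast, read 9.17, 8.98 and 9.08 in the control and 9.14, 8.80 and 8.87 in the silenced arrays. All 3 pairs were lower in silenced arrays, by 0.033, 0.18 and 0.21, and the groups overlapped because silenced replicate 1 lay above control replicates 2 and 3. The difference of Sdhd was -0.14 ± 0.11 (SE; interval -0.40 to 0.12; limma, adjusted p = 0.878). Without silenced replicate 1 it was -0.24 and had limma's unadjusted p = 0.0413, while it was -0.093 without control replicate 1 and -0.073 without silenced replicate 2.

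Sdhaf4 encodes the factor that binds flavinated SDHA and helps it to join SDHB. Its brighter probe set read 4.99, 5.30 and 5.03 in the control and 4.41, 4.79 and 4.67 in the silenced arrays. Each silenced array was below its control of the same number, by 0.58, 0.50 and 0.36, and also below all other control arrays. The difference was -0.48 ± 0.13 (SE; interval -0.79 to -0.18), with limma's unadjusted p = 0.00712, place 58 of 11292 by p, and an adjusted p of 0.871. Across all alternatives tried, its adjusted p lay between 0.459 and 1. Non-overlapping groups with silenced lower were found for 1 of 8 members and for 4.87% of tested genes, and with silenced higher for 0 of 8 members and for 6.94% of tested genes. A dimmer probe set of the same gene did not show this. It read 3.29, 2.97 and 2.82 in the control and 2.71, 3.12 and 3.33 in the silenced arrays, below the filter level, with a difference of 0.028 ± 0.179 (SE; interval -0.39 to 0.44; limma over all 21218 single-gene probe sets, adjusted p = 0.991). With both probe sets averaged, Sdhaf4 differed by -0.23 and limma's unadjusted p was 0.135.

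Sdhaf1, an LYR-motif protein needed for the iron-sulfur clusters of SDHB, read 5.77, 5.58 and 5.44 in the control and 5.86, 5.52 and 5.58 in the silenced arrays. Arrays numbered 1 were highest in both groups, and the groups overlapped. Its difference was 0.061 ± 0.127 (SE; interval -0.24 to 0.36; limma, adjusted p = 0.953). A dimmer probe set of Sdhaf1, at 3.55, 3.77 and 4.16 in control and 3.49, 3.56 and 3.78 in silenced arrays, had a mean level below the filter and differed by -0.22 ± 0.16 (SE; limma over all single-gene probe sets, adjusted p = 0.931), the opposite sign. The sign for the brighter one also turned without control replicate 3 (-0.019) or silenced replicate 1 (-0.044).

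Sdhaf2 encodes the factor that promotes attachment of FAD to SDHA. It read 8.21, 8.06 and 8.24 in the control and 8.12, 8.13 and 8.07 in the silenced arrays. The silenced values lay inside the range of the control values, with an interval of the difference from -0.26 to 0.13 (limma, adjusted p = 0.917). Sdhaf3, which acts with SDHAF1 in the maturation of SDHB, read 5.43, 5.47 and 5.59 in the control and 5.40, 5.34 and 5.67 in the silenced arrays. Both arrays numbered 3 were highest in their group. Its interval was -0.28 to 0.23 (limma, adjusted p = 0.974), and the difference of -0.027 turned to values between 0.0059 and 0.039 when control replicate 3, silenced replicate 1 or silenced replicate 2 was left out.

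**Figure D2:**
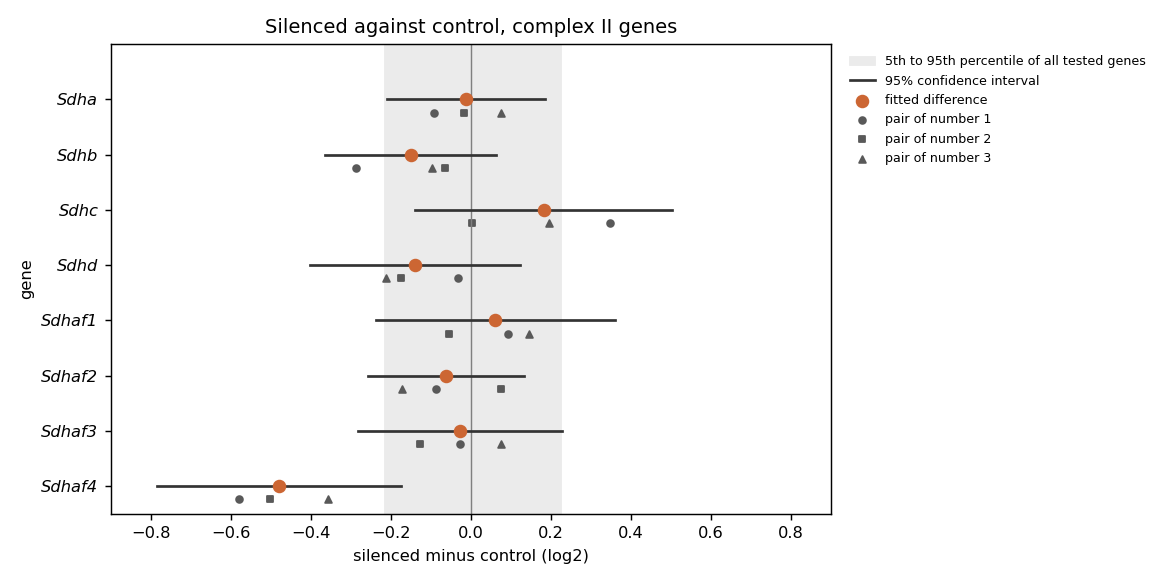
Silenced minus control difference (log2, x axis) for each complex II gene: circle in colour, limma's difference; line, its 95% confidence interval; small grey symbols, the 3 same-numbered pairs; shaded band, the 5th to 95th percentile of all tested genes (-0.22 to 0.23). The interval of Sdhaf4 on its brighter probe set (-0.79 to -0.18) is the one that leaves out 0. The intervals are not adjusted for the number of genes, and the adjusted p of Sdhaf4 in limma was 0.871. The dimmer probe set of Sdhaf4, not shown, had an interval of -0.39 to 0.44.

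As a group, 6 of the 8 genes had their lower mean in silenced arrays and 2 had it in control arrays, where 47.3% of all tested genes were lower in silenced arrays. Lower in all 3 same-numbered pairs were 3 members (Sdhb, Sdhd and Sdhaf4), against 15.8% of tested genes, and higher in all 3 pairs was 1 member (Sdhc), against 19.7%. The median difference was -0.077 over the subunits and -0.044 over the assembly factors, beside 0.0089 over all tested genes. Leaving out silenced replicate 1 gave a subunit median of -0.025, and leaving out silenced replicate 2 gave -0.044. That of the assembly factors was -0.080 without control replicate 2, -0.022 without control replicate 3, -0.017 without silenced replicate 2 and -0.084 without silenced replicate 3.

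The subunits form a complex of 1 copy each, and the differences of their genes within an array were also followed. This comparison was not among the planned results and was not repeated in other settings. Such a difference has no meaning as a level, only in how it shifts between groups. Sdhc minus Sdhd was 0.037, 0.078 and -0.070 in the control and 0.42, 0.26 and 0.34 in the silenced arrays. The silenced values were all higher, with means of 0.015 ± 0.076 and 0.34 ± 0.08 (SD, n = 3). For Sdhb minus Sdhc the control mean was 0.56 ± 0.12 and the silenced mean 0.23 ± 0.35, with silenced replicate 1 far below (-0.17). The groups did not overlap, but only narrowly, with control replicate 1 at 0.46 and silenced replicate 2 at 0.45. Sdha minus Sdhb was -0.93 ± 0.08 and -0.79 ± 0.01, also without overlap. In the other 3 subunit pairs the groups overlapped. Non-overlap in either direction was thus seen in 3 of 6 subunit pairs, against 10.8% of all pairs of tested genes. The 6 pairs come from 4 genes and are not independent of each other, and no test was made.

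**Figure D3:**
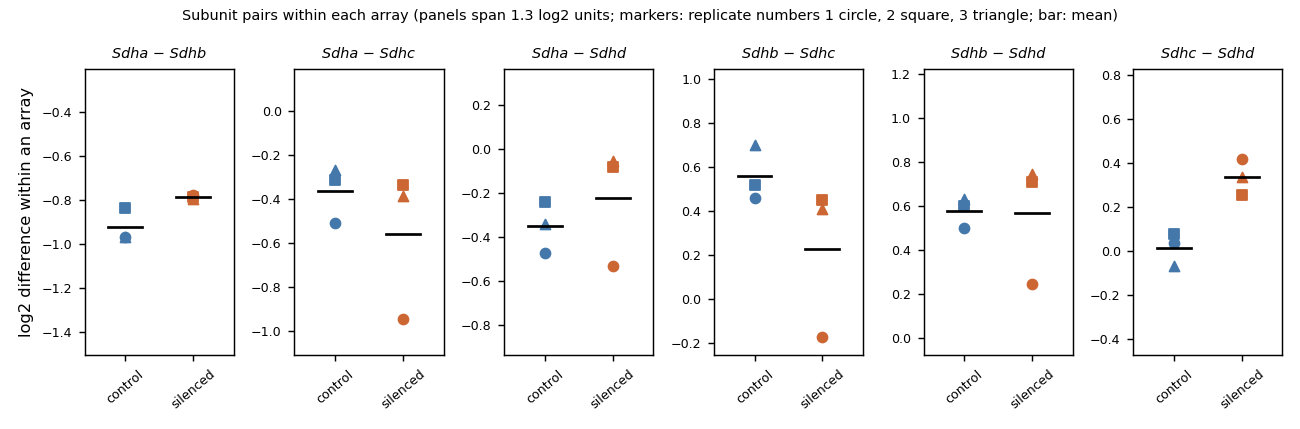
Log2 difference within an array (y axis, with the same span in every panel) for the 6 pairs of subunit genes in control and silenced arrays; symbols mark replicate numbers and bars are means of 3 arrays. For Sdhc minus Sdhd all silenced values (0.26 to 0.42) lie above all control values (-0.070 to 0.078).

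The members were also compared over the replicate numbers that the groups share. The mean of both arrays numbered 1 differed from the mean of the other 4 by 0.30 for Sdhc, 0.29 for Sdhaf1 and 0.22 for Sdhd, and by -0.25 for Sdhaf4 and -0.10 for Sdha. Over replicate numbers, 3 of 8 members (Sdhc, Sdhaf1 and Sdhaf4) had an unadjusted p under 0.05 by limma's moderated F test, against 20.4% of tested genes. After adjustment 0 of 8 passed, against 3.12% of tested genes, and the adjusted values of these 3 genes in limma were 0.243, 0.201 and 0.2. Of 28 pairs among the 8 genes, 14 correlated above and 14 below 0 over the 6 arrays. The correlations reached from -0.79 (Sdhc and Sdhaf4) to 0.89 (Sdhc and Sdhaf1). The same count over all pairs of tested genes was not made, and the 28 pairs are not independent of each other. The genes most like the mean of the 4 subunits over the 6 arrays were Adm, which encodes the peptide adrenomedullin (Pearson r = 0.994), the mitochondrial ribosomal protein gene Mrpl11 (0.983) and Papss1, an enzyme of sulfate activation (0.981). Most opposed were Rell1 (-0.993) and the transcription factor gene Klf10 (-0.992). These are descriptions over 6 points that share replicate numbers, and 123 genes had an r above 0.9 and 154 one below -0.9.

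The promoters of the members were searched for binding motifs of factors known to act on nuclear genes of the respiratory chain. RefSeq promoter windows (GRCm38.p6, 250 bases before to 50 after a transcription start) matched 7 of the 8 genes, Sdhc being without an entry. The motif of NRF1 (nuclear respiratory factor 1) was searched as GCGC, any 1 base and TGCGC, on both strands, and that of GABPA (nuclear respiratory factor 2) as CCGGAAG or its reverse complement CTTCCGG. A match of NRF1 was found in 4 of the 7 windows (Sdha, Sdhd, Sdhaf3 and Sdhaf4) and in 4.60% of all 32851 windows. GABPA was matched in 5 (Sdhb, Sdhd, Sdhaf1, Sdhaf2 and Sdhaf3) and in 8.86% of all. Every one of the 7 windows held at least 1 of the motifs, as did 12.6% of all windows, and no matches of the 2 motifs overlapped in the members. The motif of YY1, searched as AAGATGG or CCATCTT, was in 0 of the 7 and in 6.34% of all. The GC content was 57.7% to 76.7% in the members and 52.7% at the median of all windows. Its part in these counts was not tested, and a match is a description of letters, not of a bound site. The following stretches of 30 bases show, for each gene, the NRF1 match nearest the start or else the GABPA match, in capitals.
Sdha: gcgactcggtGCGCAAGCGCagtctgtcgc
Sdhd: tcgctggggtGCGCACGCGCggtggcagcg
Sdhaf3: cccaccttctGCGCAGGCGCggcgcgatgc
Sdhaf4: ccaccttggtGCGCGTGCGCagacgctgtg
Sdhb: gctcggagaaaCCGGAAGcggccttccact
Sdhaf1: tcggggcggtcCTTCCGGccagtgtggggc
Sdhaf2: ctcggttgcgcCTTCCGGcttggggtccac
They lie at chr13:74350231-74350260 (minus strand), chr9:50603909-50603938 (minus), chr6:6956001-6956030 (plus), chr1:24005613-24005642 (minus), chr4:140961266-140961295 (plus), chr7:30322350-30322379 (minus) and chr19:10525175-10525204 (minus), in the order printed. Sdha held 3 NRF1 matches, starting at -98, -55 and -10 from the transcription start, and Sdhaf4 held 1, starting at 8. The genes with an NRF1 match differed between the groups by -0.013 (Sdha), -0.14 (Sdhd), -0.027 (Sdhaf3) and -0.48 (Sdhaf4). Those with a GABPA match alone differed by -0.15 (Sdhb), 0.061 (Sdhaf1) and -0.062 (Sdhaf2). A link between motif and difference was not tested.

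The enzymes around complex II were followed through 7 lists with 80 genes, of which 72 were named by a single-gene row and 64 passed the filter. Of the 64, 0 passed limma after adjustment and 5 (7.81%) had an unadjusted p under 0.05, 3 higher and 2 lower, beside 4.80% of all tested genes. In the blocked fit, 7 (10.9%) had one, 2 higher (Ogdh and Alas1) and 5 lower (Sucla2, Suclg1, Sqor, Etfdh and Slc25a32), beside 10.3% of all tested genes, and 0 passed after adjustment. The lists' medians lay between -0.10 and 0.069, beside 0.0089 over all tested genes.

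In the TCA cycle outside complex II, 13 of 14 genes were tested, 7 with a higher and 6 with a lower mean (median 0.0036). Ogdh, the E1 subunit gene of the 2-oxoglutarate dehydrogenase complex, read 9.24, 9.16 and 9.19 in the control and 9.41, 9.37 and 9.48 in the silenced arrays. The citrate synthase gene Cs read 10.07, 10.11 and 10.13 in the control and 10.36, 10.25 and 10.25 in the silenced arrays. Neither gene's groups overlapped, and both had limma's unadjusted p under 0.05 (0.0196 and 0.0449) and an adjusted p of 0.871. Succinyl-CoA ligase makes the succinate that complex II uses. Its subunit gene Sucla2 differed by -0.25 ± 0.11 (SE; limma, adjusted p = 0.871). Chosen after their values were seen, its subunit genes Suclg1 and Suclg2 differed by -0.22 ± 0.10 (SE), without overlap, and by 0.0036 ± 0.0752 (SE). Fh1, encoding the fumarase that acts on the product of complex II and chosen in the same way, differed by -0.033 ± 0.080 (SE; interval -0.22 to 0.15).

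Other dehydrogenases that feed ubiquinone were tested for 5 of 6 genes. Sqor, which oxidizes hydrogen sulfide, read 6.26, 6.43 and 6.44 in the control and 6.19, 6.14 and 6.08 in the silenced arrays. Etfdh, which passes electrons from fatty acid oxidation, read 9.30, 9.39 and 9.41 in the control and 9.05, 9.26 and 9.17 in the silenced arrays. In both genes every silenced array lay below every control array, with limma's unadjusted p of 0.0259 and 0.0484 and an adjusted p of 0.871. Prodh, the proline dehydrogenase gene, had a higher silenced mean by 0.16 ± 0.08 (SE; limma, adjusted p = 0.871), again without overlap. That made 3 of these 5 genes without overlap, 1 higher and 2 lower, against 11.8% of tested genes in either direction. The lowest mean level of the 5, that of Prodh, was 4.29. By the same count, the TCA list had 2 higher and 1 lower of 13. Ubiquinone synthesis had 2 higher of 12 and heme synthesis 1 higher of 9. Iron-sulfur cluster assembly (14 tested), flavin supply (2) and the succinate-linked genes (9) had 0.

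Among the suppliers of cofactors, iron-sulfur cluster assembly had 4 tested genes with a higher and 10 with a lower mean (median -0.052), none at an unadjusted p under 0.05 by limma. The smallest p belonged to Bola3, Isca2 and Glrx5, with differences of -0.18 ± 0.15, -0.096 ± 0.088 and 0.14 ± 0.13 (SE). Slc25a32, the mitochondrial carrier linked to FAD and folate, differed by -0.28 ± 0.12 (SE) and the riboflavin kinase gene Rfk by 0.077 ± 0.080 (SE); these were the 2 tested genes of flavin supply. Of 9 heme synthesis genes, 6 had a higher mean. Alas1, the first enzyme of the pathway, read 8.13, 8.00 and 8.09 in the control and 8.49, 8.21 and 8.34 in the silenced arrays, without overlap (limma, unadjusted p = 0.0252, adjusted p = 0.871). Slc25a38 and Abcb10, mitochondrial transporters of that pathway, differed by 0.15 ± 0.09 and 0.10 ± 0.08 (SE). Ubiquinone synthesis had 7 tested genes higher and 5 lower, with Coq6, Coq8a and Coq5 at 0.16 ± 0.09, 0.27 ± 0.16 and 0.13 ± 0.08 (SE). Of 9 tested genes linked to succinate, 5 were higher and 4 lower in mean. Sirt5, a desuccinylase, differed by -0.12 ± 0.11, Trap1, a mitochondrial chaperone known to bind complex II, by -0.096 ± 0.088 and Egln3, a prolyl hydroxylase of the type that succinate inhibits, by 0.14 ± 0.15 (SE).

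**Figure D4:**
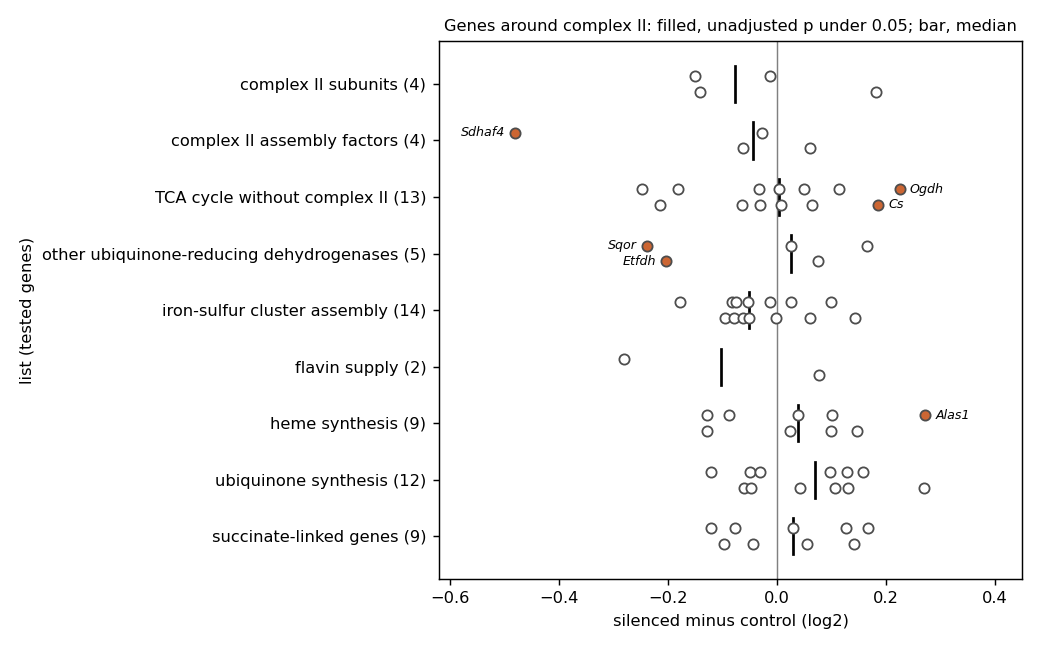
Silenced minus control difference (log2, x axis) of each tested gene of the complex II lists and of 7 lists around them; filled points have limma's unadjusted p under 0.05, and bars are list medians. Sdhaf4, on its brighter probe set (-0.48), lies apart from the other genes shown, which reach from -0.28 to 0.27. With both its probe sets averaged, Sdhaf4 differed by -0.23, within that range.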

How the data were processed

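Total RNA (100 ng per sample) was labelled for 1-colour Affymetrix whole-transcript arrays, per the labels' protocols. The authors deposited log2 values of 35556 probe sets, and the submitters' processing notes name RMA as the method. No version is given. RMA compresses differences of dim genes. The number of arrays limits the precision. The annotation lists 21218 probe sets with 1 gene, of which 21185 matched the RefSeq table by Entrez identifier, and 1881 with several. Genes above the 40th percentile of mean level were tested with limma 3.58.1 in R 4.3.3 (lmFit, eBayes, 2-sided, no covariate). Benjamini-Hochberg adjustment ran over all of them, with a threshold of 0.05. The same limma steps were run separately on simulated arrays, which had no deviation shared by arrays of the same number. Same-numbered arrays deviated together (correlations 0.551, 0.354 and 0.422), which no label explains; values come from the unblocked fit, and a fit blocked on the number is an alternative. Named genes are the members, up to 3 genes of smallest p per list, the closest and most opposed genes by correlation, and markers. Members and lists were chosen with earlier results of these data known.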

Additional observations from a re-analysis of the deposited data

How the results depend on the processing

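No member passed limma's adjusted threshold in any setting tried, nor did the 64 other genes of the pathway, and no member passed for the replicate number. With the replicate number as a block, Sdhaf4 had limma's unadjusted p = 0.000749 and an adjusted p of 0.464; the block changed no call after adjustment. Signs turned for Sdha without both arrays numbered 1 (0.028), for Sdhaf1 with all its probe sets averaged (-0.078) and, in settings chosen after seeing the data, for the dim probe sets of Sdhaf1 (-0.22) and Sdhaf4 (0.028). Leaving out 1 array moved Sdha between -0.064 and 0.041, Sdhaf1 between -0.044 and 0.15, Sdhaf3 between -0.13 and 0.039 and Sdhaf4 between -0.56 and -0.37. The subunit median moved between -0.098 and -0.025 and the assembly median between -0.084 and -0.017. Without both arrays numbered 1 the subunit median was -0.027, and with probe sets averaged the assembly median was -0.070. The count at an unadjusted p under 0.05 was 0 with probe sets averaged and with a 60th percentile filter, which drops Sdhaf1, Sdhaf3 and Sdhaf4, and 1 to 2 without 1 array. The other causes were not tested.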
